A study of Capra hircus with 29 samples.

Results

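The cohesin genes of the goat oocyte were followed in RNA-seq of 29 oocyte samples. Of the 21343 genes in the deposited table, 10 were chosen by symbol: the meiosis-specific subunits REC8, RAD21L1, SMC1B and STAG3, the general subunits RAD21, SMC1A, SMC3, STAG1 and STAG2, and SGO2, which protects cohesin at the centromere. All 10 genes had a row, and SMC1A had a pair of rows, so 11 table entries were described. The oocytes came from Ji'ning grey goats of a high fertility population (litters of more than 3) and a low fertility population (litters of fewer than 2 by the labels, while the study's methods include the limits themselves). They were taken from large, medium and small follicles, which gave the groups HLO, HMO and HSO for high fertility and LLO, LMO and LSO for low fertility, with 5 samples each and 4 of HSO (numbered 1, 3, 4 and 5). No animal was treated. The oocytes of a stage were pooled before they were divided into samples of a few oocytes each, and the goats behind a sample are not recorded, so p-values measure only the spread between these samples. Fewer cells and less RNA per cell cannot be told apart in such samples.

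Cohesin is a ring of an SMC1 and an SMC3 subunit closed by a kleisin, to which an SA (STAG) subunit binds, and it holds sister chromatids together. In meiotic cells REC8 or RAD21L1 can replace the kleisin RAD21, SMC1B can replace SMC1A, and STAG3 can replace STAG1 and STAG2. In mammalian oocytes the REC8 ring is loaded before birth and has to last until the meiotic divisions, during which separase cuts the kleisin, while SGO2 recruits a phosphatase that keeps REC8 at the centromere uncut until the second division. A transcript level does not measure the cohesin that sits on the chromosomes of an oocyte.

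The values were FPKM, fragment counts scaled by the length of a gene's exons and by the mapped fragments of the sample. These are levels per length, and genes are set side by side here on that basis. Enrichment by oligo(dT), the retention of uniquely matching reads only and the gene models may weigh unequally on different genes, which was not tested. The values carry no count, so the depth behind a single value is unknown. FPKM sums ranged from 222697 to 490048 per sample, and 6646 to 8689 genes per sample were above 0.5 FPKM. The first principal component took 39.0% of the variance and split the samples into 14 with a positive and 15 with a negative score, of which 6 and 8 were from the high fertility population. Oocyte markers summed to 814 to 9245 FPKM over 13 rows. ZP3 had the highest mean (1406 FPKM), and NOBOX (0.379 FPKM) and NLRP5 (0.303 FPKM) the lowest. Granulosa markers summed to 9.92 to 53.8 FPKM over 15 rows, of which STAR and SERPINE2 made up 80.2 to 98.2%. AMH was at 0 throughout, and FSHR, LHCGR, INHA and CYP19A1 reached at most 0.782 FPKM. Leukocyte markers summed to 0.149 to 5.72 FPKM, with 3 of 7 rows at 0. Stroma and endothelium markers summed to 5.71 to 44.3 FPKM over 9 rows, with the highest means for DCN (7.95 FPKM) and ACTA2 (5.92 FPKM). Together with the leukocyte markers they were at 10.4 to 45.4 FPKM in samples of positive score and at 5.86 to 16.6 FPKM in the others. The part of somatic transcripts in the split was not tested.

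The most abundant cohesin transcript was that of RAD21, the general kleisin, at 21.2 ± 10.3 FPKM (SD, n = 29; range 8.62 to 45.4). The SMC1A entry ENSCHIG00000025979, called SMC1A-25979 here, followed at 13.1 ± 6.84 FPKM, and SMC1B, its meiotic counterpart, at 11.1 ± 4.55 FPKM (range 6.22 to 28.9). SGO2 lay at 10.8 ± 6.31 FPKM and SMC3, the subunit shared by mitotic and meiotic rings, at 6.80 ± 3.54 FPKM. These 5 entries were above 0.5 FPKM in all 29 samples.

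The other entries were lower. REC8, the meiotic kleisin, had a mean of 4.70 FPKM but a median of 0.694 FPKM and was above 0.5 FPKM in 16 samples. STAG1 lay at 1.05 ± 0.644 FPKM (above 0.5 in 23 samples) and the second SMC1A entry, ENSCHIG00000008648 or SMC1A-8648, at 1.002 ± 0.701 FPKM (above 0.5 in 21). STAG3, the meiotic SA subunit, was at 0.221 ± 0.168 FPKM and passed 0.5 in 1 sample, LLO replicate 4, at 0.907 FPKM. STAG2, at 0.127 ± 0.0913 FPKM, passed it in none of the 29, with a highest value of 0.388 FPKM, and RAD21L1 was listed at 0 in 23 of 29 samples and reached 0.0349 FPKM at most. STAG3, STAG2 and RAD21L1 therefore did not pass the filter of more than 0.5 FPKM in at least 4 samples, and 8 entries of 7 genes entered the tests.

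Neighbours in this order differed by more than the spread of their paired difference at 3 steps only. SGO2 exceeded SMC3 by 0.52 ± 0.44 in log2(FPKM + 1) (SD over 29 samples; higher in 26 of 29). SMC1A-8648 exceeded STAG3 by 0.65 ± 0.37 and STAG2 exceeded RAD21L1 by 0.16 ± 0.11, each in 29 of 29 samples. RAD21 was above SMC1A-25979 in 26 samples, but the difference of 0.65 ± 0.79 was within its spread, and SMC1A-25979, SMC1B and SGO2 were not separated from one another. The steps around REC8 had the widest spread, with SMC3 above REC8 by 1.33 ± 1.86 in 21 of 29 samples and REC8 above STAG1 by 0.54 ± 1.81 in 14 of 29.

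**Figure D1:**
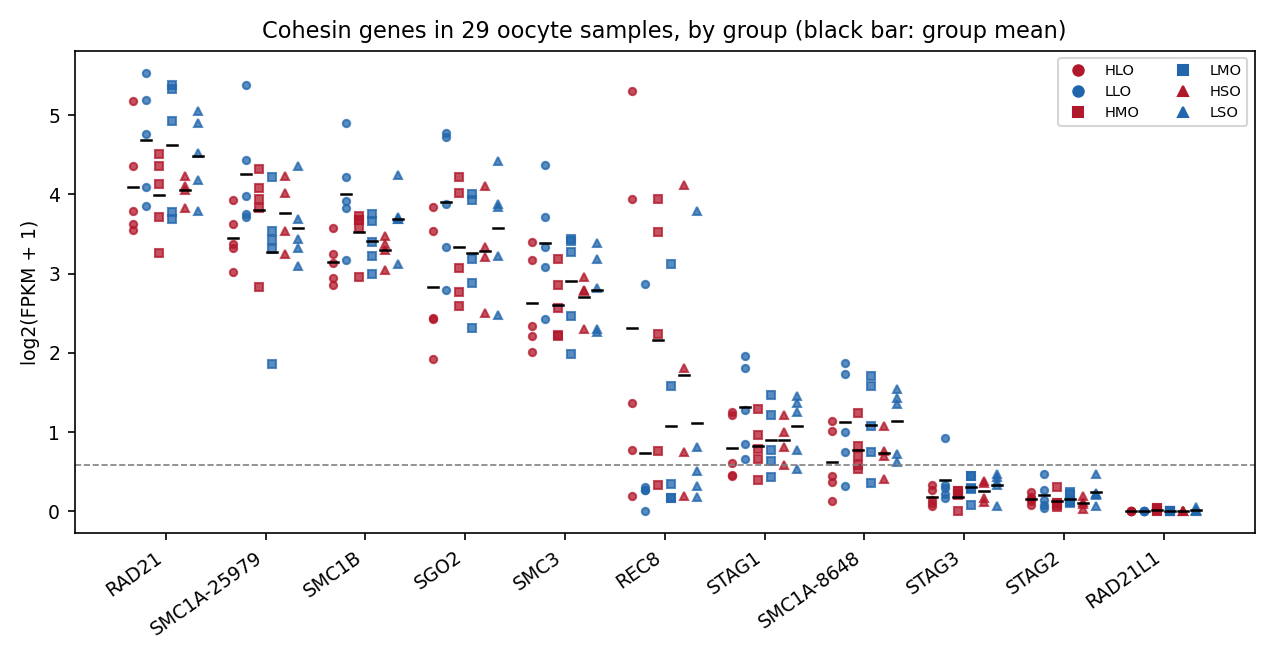
Level of each of the 11 cohesin entries (log2(FPKM + 1), vertical axis) in 29 samples, in order of mean level, with 1 point per sample, colour and shape giving the group, a black bar for the group mean and a dashed line at 0.5 FPKM. RAD21 lies highest, STAG3, STAG2 and RAD21L1 lie at or below the line in all but 1 value, and REC8 spreads from 0 to 38.6 FPKM.

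The classes of subunit were unequal in FPKM. The SA subunits summed to 1.39 ± 0.821 FPKM (n = 29) and the kleisins to 25.9 ± 11.0 FPKM, with a median ratio of kleisin to SA of 20.1 and a range from 7.26 to 88.8. The SMC1 subunits summed to 25.2 ± 11.4 FPKM, and the median ratio of SMC1 to SMC3 was 4.27 (range 1.35 to 7.70). The SA sum was thus the lowest of the 4 classes in every group, from 1.04 ± 0.533 FPKM in HMO (n = 5) to 2.14 ± 1.34 FPKM in LLO (n = 5). Of the SMC1A level, SMC1A-25979 made up 92.1% ± 7.96 (range 56.8 to 99.0%). Only SMC1A-8648 is linked in the table to the NCBI gene of that name, so how the reads of SMC1A were divided between the rows is uncertain, and the SMC1 values below depend on it.

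In each class the meiosis-specific share of the FPKM was compared between the groups as a description. SMC1B made up 44.9% ± 6.32 of the SMC1 level (n = 29; range 34.8 to 60.2%) and more than 50% in 6 samples. By group its share was 43.0% ± 4.61 in HLO, 43.8% ± 5.31 in LLO, 43.6% ± 5.84 in HMO, 48.8% ± 8.37 in LMO, 40.2% ± 6.67 in HSO and 49.2% ± 4.46 in LSO. Of the high and low groups of the same follicle size, only HSO and LSO lay further apart than either SD. Their ranges overlapped (34.8 to 49.9% and 44.4 to 55.7%), and the difference was not tested. With SMC1A-8648 alone as the counterpart, an alternative chosen after seeing the data, the share was 92.0% ± 4.63, and with SMC1A-25979 alone 47.0% ± 7.82. HSO and LSO were then at 92.9% ± 2.84 and 90.8% ± 3.60 with SMC1A-8648, and at 41.4% ± 6.51 and 52.0% ± 6.08 with SMC1A-25979. STAG3 made up 15.9% ± 7.16 of the SA level and at most 31.1%. Group means of the STAG3 share ran from 12.5% ± 2.35 in HLO to 19.8% ± 9.06 in LMO, a range within the SD of LMO but beyond that of HLO.

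The kleisin share behaved differently, since it followed REC8. Over 29 samples it had a mean of 15.6% ± 20.8 and a median of 3.71%, and it exceeded 50% in HLO replicate 2 (77.2%) and HSO replicate 1 (51.3%). Group means were 27.4% ± 32.2 in HLO against 6.20% ± 12.3 in LLO, 23.7% ± 19.1 in HMO against 9.08% ± 16.1 in LMO, and 17.4% ± 23.2 in HSO against 9.97% ± 18.4 in LSO. The high fertility group had the higher mean at all 3 follicle sizes. At each size the difference was smaller than the SD of the high fertility group, but between HLO and LLO it exceeded the SD of LLO. These SDs include the differences between sample numbers described below for REC8.

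**Figure D2:**
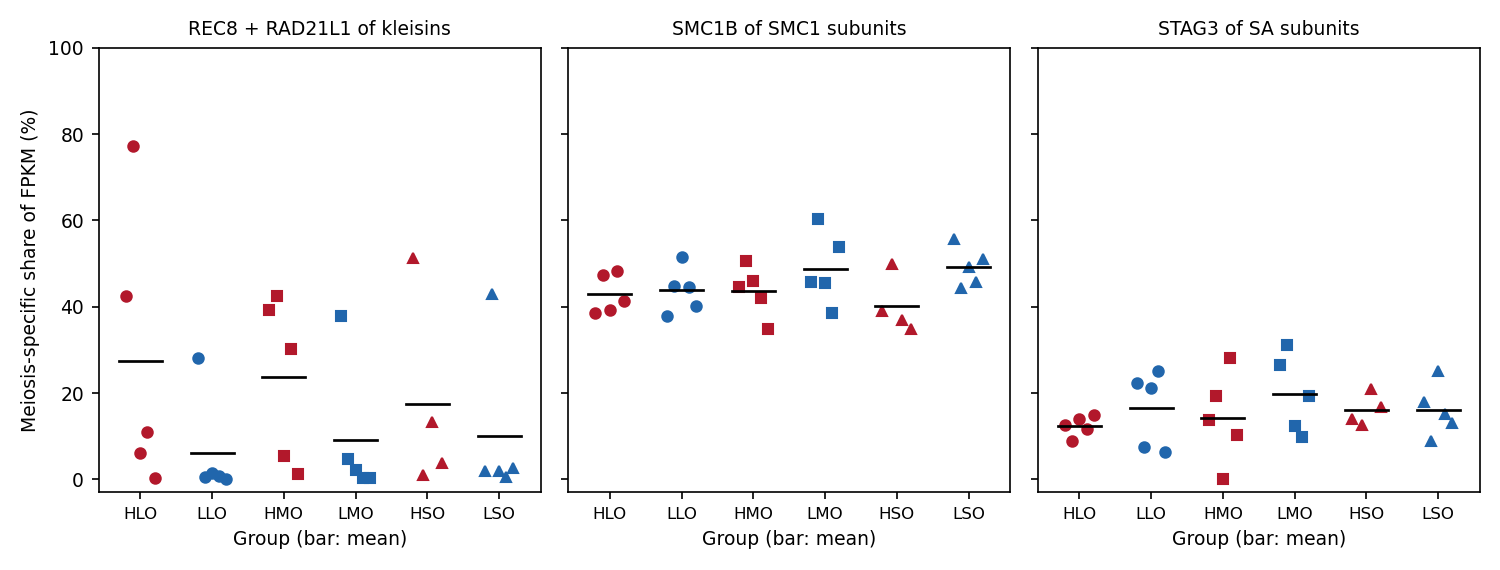
Meiosis-specific share of the kleisin, SMC1 and SA levels (% of FPKM, vertical axis) in each sample of the 6 groups, with a bar at the group mean. The SMC1B share stays between 34.8 and 60.2%, the STAG3 share at or below 31.1%, and the kleisin share runs from 0 to 77.2%.

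REC8 was the member with the widest spread between samples: its SD of log2(FPKM + 1) was 1.59, larger than that of 98.1% of the 9692 genes in the fit over 29 samples, whose median SD was 0.56. In the high fertility population REC8 was at 14.4, 38.6, 0.706, 1.58 and 0.144 FPKM in HLO replicates 1 to 5 and at 10.6, 14.3, 0.694, 3.70 and 0.259 FPKM in HMO replicates 1 to 5. In HSO replicates 1, 3, 4 and 5 it was at 16.4, 0.142, 2.49 and 0.684 FPKM. Values above 10 FPKM thus stood beside values below 1 FPKM within each of these groups.

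In the low fertility population REC8 was at 6.28, 0.233, 0.202, 0.205 and 0 FPKM in LLO replicates 1 to 5. In LMO it was at 7.72, 2.01, 0.269, 0.126 and 0.121 FPKM, and in LSO at 0.422, 12.8, 0.247, 0.129 and 0.759 FPKM. Each low fertility group held 1 sample above 5 FPKM, and at every follicle size the high and low groups overlapped. In all, 8 of 29 samples were above 5 FPKM, a limit chosen after the values were seen, with 6.28 FPKM as the lowest value above it and 3.70 FPKM as the highest below. They were 5 of 14 high fertility and 3 of 15 low fertility samples, while 6 and 11 were at 1 FPKM or less.

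The samples with high REC8 were numbered 1 or 2. Above 5 FPKM were 5 of 6 samples numbered 1 and 3 of 5 numbered 2, and 0 of the 6 numbered 3, of the 6 numbered 4 and of the 6 numbered 5. The median was 9.13 FPKM for number 1, 12.8 for number 2, 0.258 for number 3, 0.891 for number 4 and 0.201 for number 5. Samples of the same number and follicle size were also set side by side, after the values were seen. REC8 was higher in the high fertility sample in all 5 pairs for large follicles, all 5 for medium ones and 2 of 4 for small ones. No source says that a number pairs a high with a low fertility sample. The share of such genes among all genes was not counted, so these pairs are a description only. The labels and the study's methods do not say whether a number marks a shared preparation or day.

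A limma F-test of the sample number with the 6 groups in the model, added after seeing the data, gave REC8 an adjusted p of 0.000133. It also gave an adjusted p under 0.05 to 7 of the 8 cohesin entries, all but SMC1B (0.126), and to 50.5% of all 9692 genes. Whether REC8 differed between samples because of their number or because of the oocytes they held cannot be told apart. The number went with the first component too: 5 of 6 samples numbered 1, 3 of 6 numbered 4 and 6 of 6 numbered 5 had a positive score, and 0 of those numbered 2 or 3.

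**Figure D3:**
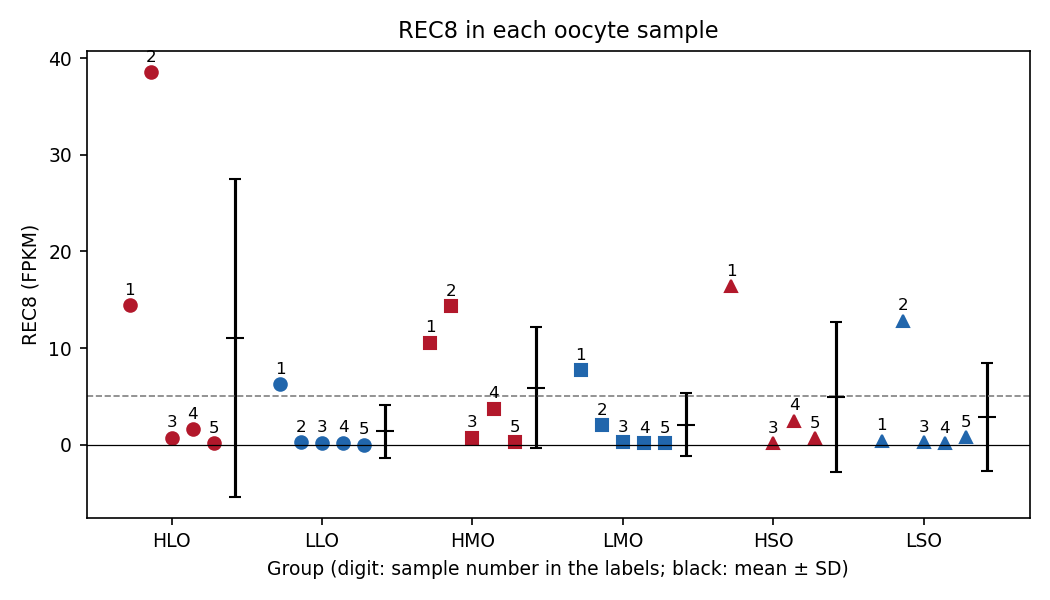
REC8 level (FPKM, linear vertical axis) in each sample of the 6 groups, with the digit giving the sample number, black bars the group mean ± SD and a dashed line at 5 FPKM. All 8 points above the line are numbered 1 or 2, and every group has at least 1 of them.

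The genes most like REC8 over the 29 samples, among 2946 candidates with a symbol carried by 1 row and a mean of at least 5 FPKM, were LOC108636573 (Pearson r 0.93) and VKORC1 (r 0.87), which encodes the vitamin K epoxide reductase. The 29 points share libraries and the split by number, so these r are descriptions. In the 8 samples with REC8 above 5 FPKM, VKORC1 was at 39.0 to 304 FPKM (median 130), against 15.7 to 49.0 FPKM (median 25.5) in the other 21. LOC108636573 was at 11.1 to 26.1 FPKM in the former and at 0 to 2.80 FPKM in the latter, 14 of which were at 0.

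The RefSeq neighbours of REC8 in the assembly ARS1.2 are IRF9 and IPO4, and whether the counting used strand is not given in the sources used here. IPO4, an importin gene whose end lies against that of REC8, was at 2.21 to 11.3 FPKM (median 4.94) in the 8 samples and at 0.0762 to 10.9 FPKM (median 1.72) in the other 21. IRF9, an interferon signalling factor, was at medians of 0.701 and 0.533 FPKM. RAD21 was at 11.4 to 19.6 FPKM (median 16.3) in the 8 samples, inside its range of 8.62 to 45.4 FPKM (median 21.9) in the others. The part of the neighbouring genes in the REC8 values was not tested.

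The question put to the design was whether oocytes of the fertility populations differ at the same follicle size. In large follicles 7 of the 8 tested entries had a lower mean in HLO than in LLO, and REC8 a higher one. Their median difference in log2(FPKM + 1) was -0.67, against -0.09 over all 8328 genes tested. None of the 8 passed limma's test at an adjusted p under 0.05 (0% of all genes did) or at an unadjusted p under 0.05 (4.14% did). An exact permutation test per gene gave 0 of 8 after adjustment and 2 of 8 without it (3.85% of all genes). With 5 samples a group, its smallest possible p passes adjustment over 8328 genes only if very many genes reach it. The adjusted count of 0 was thus nearly fixed in advance. At an unadjusted p under 0.05 there were 6 of 8 entries with limma's array weights, which give less to samples that stand apart (16.5% of all genes), and 3 of 8 with 1 fit over all 29 samples (10.6%), and 0 in both after adjustment.

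SMC1B, the meiotic SMC1 subunit, was at 7.76, 6.71, 6.22, 8.53 and 10.9 FPKM in HLO replicates 1 to 5 and at 7.98, 17.6, 13.2, 14.1 and 28.9 FPKM in LLO. All LLO samples but replicate 1 lay above all HLO samples. The difference was -0.86 ± 0.42 (SE; unadjusted p = 0.0608, adjusted p = 0.828, limma). SGO2, the centromeric protector, was at 10.6, 2.81, 4.37, 4.42 and 13.4 FPKM in HLO and at 13.7, 9.14, 5.91, 25.4 and 26.5 FPKM in LLO, so that the groups overlapped between 5.91 and 13.4 FPKM. Its difference was -1.07 ± 0.53 (SE; unadjusted p = 0.0650, adjusted p = 0.828, limma). REC8 differed by 1.58 ± 0.90 (SE), with a 95% interval from -0.35 to 3.51. Granulosa markers summed to 25.8 to 43.8 FPKM in HLO and to 16.0 to 28.5 FPKM in LLO. STAR alone was at 17.6 to 30.0 FPKM in HLO and 5.11 to 17.2 FPKM in LLO, while FSHR, LHCGR, AMH, INHA and CYP19A1 together reached 0.336 and 0.315 FPKM at most. The part of these markers in the differences was not tested.

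In medium follicles the entries were divided, with 4 lower and 4 higher in HMO than in LMO and a median difference of -0.01 (-0.07 over all 8390 genes). No entry passed limma's test at an adjusted p under 0.05 (0.0715% of all genes did) or an unadjusted p under 0.05 (8.67%). With array weights 4 of 8 had an unadjusted p under 0.05, as did 39.8% of all genes. RAD21 was at 16.5, 19.5, 12.1, 8.62 and 21.9 FPKM in HMO and at 12.7, 40.7, 11.9, 39.3 and 29.3 FPKM in LMO. The 3 highest LMO samples lay above every HMO sample and the other 2 within their range, and the difference was -0.63 ± 0.43 (SE). SMC1A-25979 differed by 0.53 ± 0.44 and REC8 by 1.08 ± 0.76. Granulosa markers summed to 16.3 to 27.6 FPKM in HMO and 27.5 to 53.8 FPKM in LMO, with STAR alone at 8.54 to 15.6 and 19.8 to 39.0 FPKM. FSHR, LHCGR, AMH, INHA and CYP19A1 together reached 0.141 and 1.15 FPKM at most, and the part of the markers in these values was not tested.

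In small follicles the median difference between HSO and LSO was -0.23 over the 8 entries and -0.01 over all 8376 genes. Again 0 of 8 passed limma's test at an adjusted p under 0.05 (0.0119% of all genes) or an unadjusted p under 0.05 (4.41%). The largest differences were those of REC8 (0.60 ± 0.88, SE), RAD21 (-0.43 ± 0.34), SMC1A-8648 (-0.40 ± 0.25) and SMC1B (-0.40 ± 0.31). The REC8 difference turned to -0.21 without HSO replicate 1.

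Over the 3 follicle sizes together, with size as a covariate, 0 of 8 entries passed limma's test at an adjusted p under 0.05 (0.0103% of all 9692 genes). At an unadjusted p under 0.05 there were 3 entries, all lower in the high fertility population, against 6.59% of all genes in that direction and 9.99% in either. They were RAD21 (-0.55, 95% interval -1.03 to -0.08, adjusted p = 0.458), SMC1A-8648 (-0.41, -0.75 to -0.07, adjusted p = 0.444) and SMC1B (-0.38, -0.75 to -0.01, adjusted p = 0.492). With each sample left out in turn, RAD21 and SMC1A-8648 kept an unadjusted p under 0.05 in 29 of 29 fits and SMC1B in 12 of 29. These fits share nearly all their samples and so do not repeat the test. The share of all genes in them is not given here. REC8 was at 1.10 (-0.00 to 2.21, adjusted p = 0.5001), SMC1A-25979 at -0.04 (0.056 with median-of-ratios scaling and 0.0015 with array weights), and the 8 entries had a median of -0.39 against -0.04 over all genes. With array weights 3 entries passed at an adjusted p under 0.05: RAD21 (-0.73, adjusted p = 0.0393), SMC1A-8648 (-0.48, adjusted p = 0.0393) and SMC3 (-0.58, adjusted p = 0.0453), where 7.13% of all genes did. With median-of-ratios scaling the 3 unadjusted entries were RAD21, SMC1A-8648 and REC8 (10.5% of all genes passed), and the share of lower genes among all those with an unadjusted p under 0.05 moved from 66.0% to 40.7%. With the sample number as a block in the model, 0 of 8 entries passed after adjustment. All but SMC1A-25979, 7 of 8, then had an unadjusted p under 0.05 (15.1% of all genes). RAD21, SMC3, STAG1 and SMC1A-8648 had lower means in the high fertility group at all 3 sizes, REC8 a higher mean at all 3, and SMC1B, SGO2 and SMC1A-25979 changed sign between sizes. In all 33 comparisons of an entry between the high and low group of a size, the values of the groups overlapped. The share over all genes was not counted. STAG3, STAG2 and RAD21L1, which did not pass the filter, are among the 33, and RAD21L1 was at 0 in all samples of HLO and LLO, where overlap was fixed in advance.

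RAD21 shows how far the groups overlapped. Its mean was 17.9 ± 10.3 FPKM in HLO against 27.3 ± 13.4 in LLO, 15.7 ± 5.38 in HMO against 26.8 ± 13.9 in LMO, and 15.7 ± 1.90 in HSO (n = 4) against 22.6 ± 7.96 in LSO. The HSO values of 15.6, 13.2, 16.2 and 17.7 FPKM all fell inside the LSO range of 12.9 to 32.1 FPKM. Within the 14 samples of positive score the difference, high minus low, was -0.38 ± 0.30 (SE) and within the 15 of negative score -0.61 ± 0.31, with adjusted p of 0.934 and 0.517 (limma). Within both sets REC8 kept a positive estimate (1.21 ± 0.79 and 0.9998 ± 0.75), and SMC1A-25979 changed sign (-0.06 ± 0.31 and 0.12 ± 0.34).

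**Figure D4:**
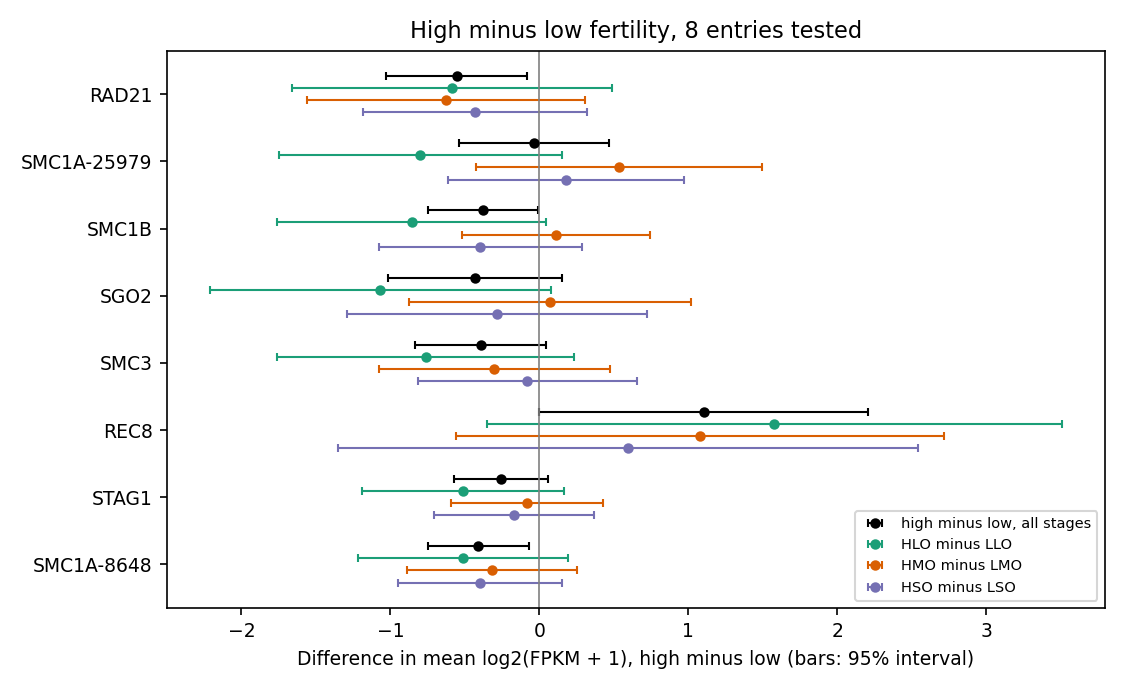
Difference in mean log2(FPKM + 1), high minus low fertility (horizontal axis), for the 8 tested cohesin entries over all follicle sizes (black) and at each size (colours), with 95% intervals. The black intervals of RAD21, SMC1B and SMC1A-8648 end just below 0, that of REC8 starts at -0.00, and every interval of a single follicle size includes 0.

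The fertility difference was not shown to depend on follicle size. For the interaction 0 of 8 entries passed limma's F-test at an adjusted p under 0.05 (0% of all genes) or an unadjusted p under 0.05 (7.89%), with the smallest p for SMC1A-25979 (unadjusted p = 0.0612, adjusted p = 0.667). Over all 6 groups 0 of 8 passed at an adjusted p under 0.05 (0.031% of all genes) or unadjusted (6.87%), with the smallest p for SMC1B (unadjusted p = 0.0842, adjusted p = 0.797).

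Nor did any entry pass between follicle sizes. In limma's F-test over large, medium and small follicles with the population as a covariate, 0 of 8 passed at an adjusted p under 0.05 (0% of all genes) or an unadjusted p under 0.05 (1.66%). The estimates were small beside their intervals: large minus small follicles gave 0.13 for RAD21 (95% interval -0.45 to 0.71), 0.09 for SMC1B (-0.37 to 0.54), 0.28 for SMC3 (-0.27 to 0.82), -0.05 for SGO2 (-0.77 to 0.67) and 0.08 for REC8 (-1.28 to 1.45). Differences of up to 0.71 for RAD21 and 1.45 for REC8 therefore remain inside the intervals.

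REC8, whose high values were those of samples numbered 1 or 2, was left out of the correlations between entries. To keep the split of the first component out of the relation, the 21 pairs of the 7 other tested entries were correlated within each set of samples, on log2(FPKM + 1). In the 14 samples of positive score, r was positive for 21 of 21 pairs (median 0.75). Its adjusted permutation p was under 0.05 for 20 pairs by Pearson's r and for 15 by Spearman's rho, over a family of 42 tests. In the 15 of negative score r was positive for 18 of 21 pairs (median 0.62), with 12 and 11 pairs under 0.05. Over all pairs of the genes in the fit, r was positive for 53.3% in the first set (median 0.039) and for 58.6% in the second (median 0.094). The pairs share samples and entries, and the sample number passed its F-test in 50.5% of all genes, so these counts are descriptions. Samples were shuffled within a set without regard to group or number. Differences between groups and between numbers were thus left in each r, and the permutation p here and below does not allow for them.

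RAD21 and SMC3, a kleisin and the SMC subunit it closes onto, were among the closest pairs in both sets. In the samples of positive score they had r = 0.87 and rho = 0.94 (permutation p = 1e-05 for both, the smallest that 100000 resamples can give), and r = 0.87 without the 2 samples farthest from the median of RAD21. In those of negative score they had r = 0.91 (permutation p = 6e-05) and rho = 0.89 (permutation p = 1e-05), and r = 0.76 without 2 samples. SMC1A-8648 and STAG1 were closer in the samples of positive score (r = 0.94), with r = 0.69 in those of negative score. Whether the place of a subunit in the ring had a part in these r was not tested. SMC1A-8648 and RAD21 had r = 0.81 and rho = 0.82 in the first set (adjusted permutation p = 0.00275 and 0.0032) and r = 0.76 and rho = 0.59 in the second (0.00893 and 0.0358). SMC1A-25979 and SMC1B had r = 0.78 and rho = 0.57 in the first (adjusted permutation p = 0.00784 and 0.0574) and r = 0.70 and rho = 0.65 in the second (0.00784 and 0.0198). SMC1A-25979 and RAD21 had r = 0.52 and rho = 0.42 in the first (adjusted permutation p = 0.0626 and 0.184), where r was 0.17 without 2 samples, and r = -0.35 and rho = -0.26 in the second (0.237 and 0.40). The difference between the sets was not tested. The number of genes above 0.5 FPKM went with the same split, from 7699 to 8689 in the samples of positive score and from 6646 to 8450 in the others, and SGO2 had medians of 14.7 and 5.83 FPKM, SMC3 of 8.09 and 3.95 FPKM and RAD21 of 24.0 and 13.2 FPKM. The part of library complexity in the pairs was not tested.

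**Figure D5:**
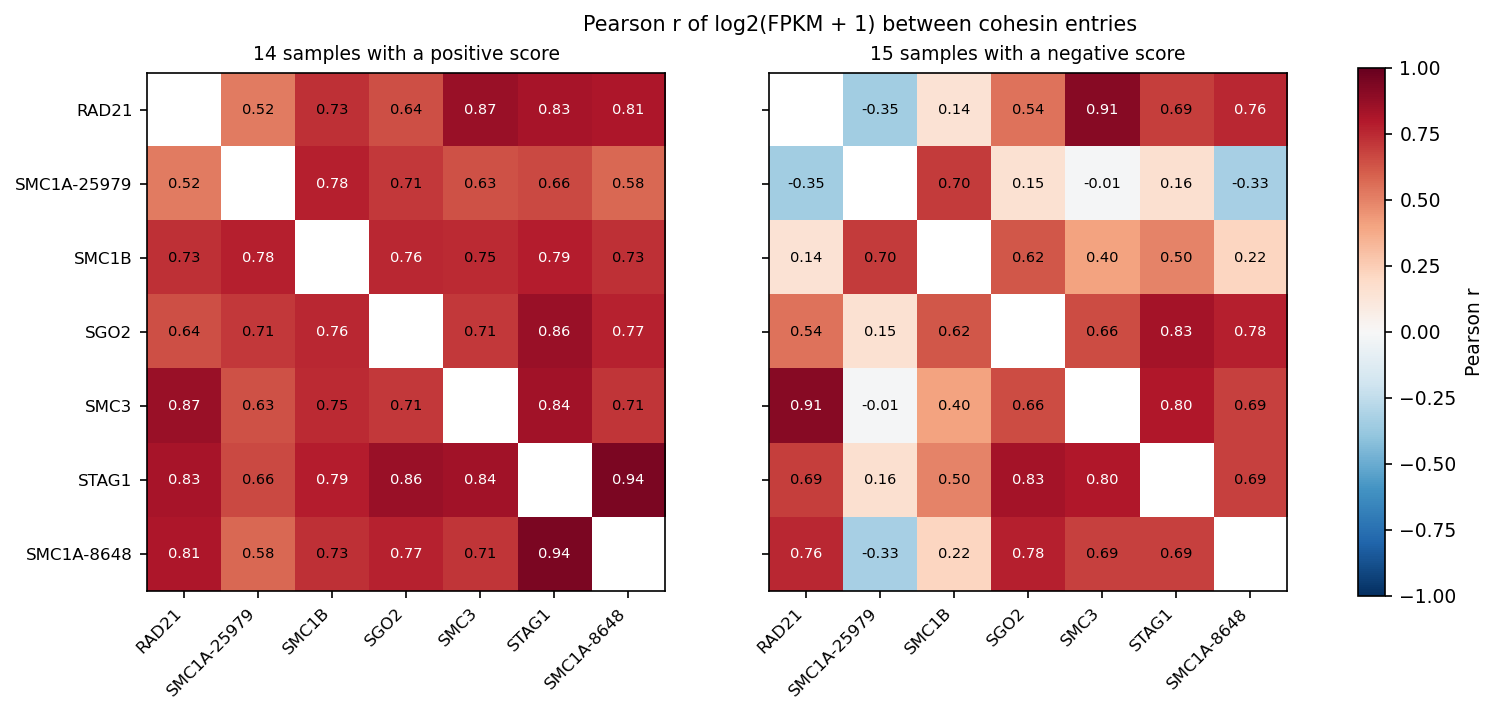
Pearson r of log2(FPKM + 1) between 7 cohesin entries (rows and columns), in the 14 samples with a positive (left) and the 15 with a negative first component score (right), with colour from -1 to 1. All 21 pairs are positive on the left, and on the right the pairs of SMC1A-25979 with RAD21, SMC3 and SMC1A-8648 are below 0.

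Over all 29 samples, the genes most like SMC3 were CCDC186 (r 0.98) and ZMYM5 (r 0.96), those most like SGO2 were HSPA4L (r 0.97) and PARPBP (r 0.96), and those most like RAD21 were PSMD11 and MAPK6 (both r 0.92). STAG1 was nearest to CEP120 (r 0.95) and QTRT2 (r 0.94), SMC1A-8648 to EPRS (r 0.93) and LARP1B (r 0.92), SMC1A-25979 to TARDBP (r 0.87) and NRBP1 (r 0.84), and SMC1B to WDR76 (r 0.89) and PNN (r 0.85). The points share libraries and their split by number, so these r are given as descriptions.

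Genes that load, modify, release or cut cohesin were counted beside its subunits. Of 25 listed regulators 23 had a row, and 22 rows passed the filter over 29 samples. The highest was PTTG1, the securin that holds separase inactive, at 4305 ± 1788 FPKM (range 1265 to 11073) in the entry ENSCHIG00000027118, while its other entry was listed at 0 throughout. ESCO2, an acetyltransferase that locks cohesin on chromatids, was at 122 ± 64.6 FPKM and AURKC, an aurora kinase of germ cells, at 68.0 ± 59.1 FPKM. ESPL1, separase itself, was at 5.08 ± 1.89 FPKM and SGO1, the paralog of SGO2, at 12.9 ± 6.54 FPKM.

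Between the fertility populations over all sizes, 0 of 22 regulators passed at an adjusted p under 0.05 and 3 at an unadjusted p under 0.05, all lower in the high fertility population (limma), beside 0.0103% of all genes adjusted, 9.99% unadjusted and 6.59% unadjusted and lower. They were the loader NIPBL (-0.46 ± 0.17, SE), the cohesin-associated factor PDS5B (-0.40 ± 0.19) and CTCF (-0.37 ± 0.17), at which cohesin stops on chromatin, with adjusted p from 0.434 to 0.497. The 22 had a median of -0.25, against -0.04 over all genes. Between follicle sizes 0 regulators passed after adjustment. The checkpoint kinase BUB1 was the 1 that passed unadjusted (1.66% of all genes did), with an adjusted p of 0.99998 (limma F-test). Its differences were -0.48 ± 0.21 (SE) for large minus medium and -0.55 ± 0.21 for large minus small.

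Of the related condensin and SMC5/6 complexes, which compact chromosomes and serve their repair, 12 rows were tested. NSMCE4A (63.4 ± 20.0 FPKM), NSMCE1 (56.0 ± 36.9 FPKM) and SMC2 (44.2 ± 30.6 FPKM) were the highest. Between the populations 0 of 12 passed after adjustment and 1 unadjusted, SMC6, at -0.54 ± 0.20 (SE; adjusted p = 0.427, limma), beside 9.99% of all genes unadjusted. The list had a median of -0.18.

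The synaptonemal complex and meiotic axis genes pair the homologs in fetal oocytes. The highest of the 11 tested were SYCP3 (255 ± 111 FPKM), SYCE2 (137 ± 75.8 FPKM) and TEX12 (117 ± 65.2 FPKM), with means above that of any cohesin subunit. Between the populations 2 of 11 had an unadjusted p under 0.05, both higher in the high fertility population (3.39% of all genes were), and none passed after adjustment. They were the central element gene SYCE3 (0.93 ± 0.36, SE; adjusted p = 0.436, limma) and the axis gene HORMAD2 (0.43 ± 0.21; adjusted p = 0.497). The median over the 11 was 0.11. Whether this list differs from the cohesin genes was not tested.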

How the data were processed

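Oocyte RNA was enriched by oligo(dT) and sequenced. Uniquely matching reads with few mismatches were retained by the authors, who took out duplicates with picard and deposited FPKM from Cufflinks, computed on Ensembl gene models; aligner and genome build are not given in the sources used here. Columns were mapped to samples by name, and 1 column without a sample was not used. No 2 samples held identical values.

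Genes above 0.5 FPKM in at least 4 samples of a fit were tested with limma 3.58.1 (R 4.3.3, trend) on log2(FPKM + 1), which understates changes of low genes, with Benjamini-Hochberg adjustment over all genes. Each follicle size was fitted alone, and all 29 samples for the fertility, size, group and interaction tests. Python 3.11.15 computed shares and permutations. The procedure was tested on simulated data with independent noise per gene and sample. These held no effect of sample number, so error rates under such an effect were not tested. All members, the pathway genes with an unadjusted p under 0.05 where a member had one, the 3 highest of each list and the 2 nearest genes per member were named; ESPL1 and SGO1 were added after their values were seen. Members and lists were chosen with earlier results of these data known.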

Additional observations from a re-analysis of the deposited data

Results flagged for a closer look

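Of 84 sets of values (11 entries and 3 shares in 6 groups of 4 or 5 samples), 11 held a sample whose gap to the next exceeded Dixon's 95% limit. That limit stands for 1 in 20 only with normal values and independent sets. FPKM are skewed, and the shares are made from the same entries, so no excess is read from the count. RAD21L1, at 0 in all samples of HLO, LLO, LMO and HSO, could not be flagged there. REC8 gave 4: HSO replicate 1 at 16.4 FPKM (others 0.142 to 2.49), LLO replicate 1 at 6.28 FPKM (others 0 to 0.233), LMO replicate 1 at 7.72 FPKM (others 0.121 to 2.01) and LSO replicate 2 at 12.8 FPKM (others 0.129 to 0.759). The kleisin share, which is made from REC8, gave 3 of the same samples, at 28.1% in LLO replicate 1, 37.8% in LMO replicate 1 and 42.9% in LSO replicate 2.

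SMC1B stood low in HMO replicate 2, at 6.75 FPKM against 10.9 to 12.3 FPKM in the other 4. STAG3 stood high in LLO replicate 4, at 0.907 FPKM against 0.121 to 0.262 FPKM, and low in HMO replicate 3, where it was listed at 0 against 0.156 to 0.191 FPKM. STAG2 stood high in HMO replicate 5, at 0.235 FPKM against 0.0357 to 0.0785 FPKM. Of these STAG3 and STAG2 values, that of LLO replicate 4 alone was above 0.5 FPKM.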

How the results depend on the processing

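Of 201 counts of cohesin entries called at an adjusted p under 0.05, 200 stayed at 0. Array weights gave 3 for high minus low over all sizes (RAD21, SMC1A-8648 and SMC3), where 691 of 9692 genes passed instead of 1. The exact permutation tests are among the 200 and could hardly give another count, since their smallest possible p is too large for so many genes. With a sample left out, the called count was 0 in every comparison (lowest and highest). Counts without adjustment moved more. For HLO minus LLO 0 of 8 entries became 6 with array weights (16.5% of all genes). They became 3 with 1 fit over all samples (10.6%) and 3 with the replicate block (8.21%). For HMO minus LMO 0 became 4 with array weights (39.8%). The number of members at an unadjusted p under 0.05 with a sample left out ran from 0 to 3 for HLO minus LLO and from 2 to 4 for all sizes. The share of all genes in these fits is not given here. The replicate block left 0 called but gave 7 of 8 entries an unadjusted p under 0.05 for all sizes, against 3 without it, beside 15.1% and 9.99% of all genes; REC8 then had 1.22 (unadjusted p = 0.000921, adjusted p = 0.213), and 1.58 for HLO minus LLO and 1.08 for HMO minus LMO (unadjusted p = 0.0247 and 0.0113, adjusted p = 0.579 and 0.17). No source says that the numbers pair the samples, so the main fits held no term for the number. Same-numbered samples of different groups correlated at a mean r of 0.36, with 55 of 70 pairs over 0.1 and the lowest at -0.57. Pairs of other numbers had a mean r of -0.09, with 100 of 280 over 0.1. Of the 29 samples, 20 correlated best with their own number. Differences between numbers thus stayed in the spread of the main fits.

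The order of levels was the same in 30 of 30 alternatives. The SMC1B share with SMC1A-8648 alone was 93.5% in HLO, 92.3% in LLO, 93.5% in HMO, 88.8% in LMO, 92.9% in HSO and 90.8% in LSO.

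Signs turned in 24 of 766 single values, 17 of them with a sample left out. SGO2 for HMO minus LMO ran from -0.17 to 0.26 with a sample left out and was -0.54 with array weights, which also turned SMC1B there (-0.031). STAG1 for HMO minus LMO ran from -0.20 to 0.056, and was 0.016 with the side of the first component as a covariate. For HSO minus LSO, REC8 ran from -0.21 to 1.26 and SMC3 from -0.21 to 0.068 (0.0088 with the number of genes as a covariate). SMC1A-25979 over all sizes ran from -0.17 to 0.084, and was 0.056 with median-of-ratios factors, 0.00151 with array weights and 0.022 with the side as a covariate. The causes were not tested. The covariates were chosen after seeing the data.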
